A study of Rattus norvegicus with 4 samples.

Results

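Vitamin A reaches the liver as retinyl esters and carotenoids, is stored there, and leaves as retinol bound to a plasma carrier. The 9 genes described here are those of retinol dehydrogenation and retinoid handling, namely Sdr16c6, Rdh16, Rdh10 and Adh7, which encode dehydrogenases of retinol or related alcohols, Aldh1a1 and Aldh1a2, which oxidise retinal, Bco1, which cleaves carotene, Lrat, which esterifies retinol, and Rbp4, the plasma carrier. They were chosen by gene symbol, and all 9 were among the 14506 genes measured, each with 1 probe set. Liver RNA came from untreated male WNIN/Ob rats aged 4 months, of the obese and of the lean phenotype, kept on stock diet without restriction. WNIN/Ob is a rat strain in which obese animals occur beside lean animals. Equal numbers of animals, 4 of each phenotype, were pooled, and each pool was measured on 2 Affymetrix Rat Gene arrays, called the original and the technical replicate array. Each phenotype is therefore a single pool whose arrays show measurement error only, so animals cannot be compared by any test and p-values are not given.

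Retinol is oxidised reversibly to retinal by membrane-bound short-chain dehydrogenases and, with broader substrate use, by cytosolic alcohol dehydrogenases. Retinal is then oxidised irreversibly to retinoic acid by the ALDH1A enzymes, and retinoic acid binds nuclear receptors until enzymes of the CYP26 family hydroxylate it. In the liver, hepatocytes make the plasma carrier and take up dietary retinyl esters, whereas most of the store lies in droplets of stellate cells, where LRAT forms the esters.

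Upstream sequences are shown first, because several of the 9 genes stood higher in the obese pool together and their start regions can be set side by side. RefSeq's promoter table (assembly GRCr8) held 7 of the 9 genes, and of the 6 genes past the 1.5-fold rule given below it held Sdr16c6, Aldh1a1, Adh7 and Bco1. The 250 bases before the annotated start of each are given on the gene's strand, at chr5:21916289-21916538 (minus strand) for Sdr16c6, chr1:227537370-227537619 (plus) for Aldh1a1, chr2:229421875-229422124 (plus) for Adh7 and chr19:62057890-62058139 (plus) for Bco1. Capitals mark the nuclear receptor hexamer AGGTCA, the TATA box letters TATAAA and the CCAAT box, each searched on both strands.
Sdr16c6: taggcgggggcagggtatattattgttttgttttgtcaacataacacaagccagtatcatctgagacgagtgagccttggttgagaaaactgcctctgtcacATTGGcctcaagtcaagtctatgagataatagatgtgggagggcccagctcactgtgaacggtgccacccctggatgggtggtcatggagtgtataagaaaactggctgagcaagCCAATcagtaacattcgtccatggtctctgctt
Aldh1a1: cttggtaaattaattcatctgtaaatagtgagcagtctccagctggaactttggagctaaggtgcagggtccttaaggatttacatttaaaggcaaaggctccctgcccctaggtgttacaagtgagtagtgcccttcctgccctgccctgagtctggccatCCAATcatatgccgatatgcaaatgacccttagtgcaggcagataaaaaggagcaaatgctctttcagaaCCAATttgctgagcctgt
Adh7: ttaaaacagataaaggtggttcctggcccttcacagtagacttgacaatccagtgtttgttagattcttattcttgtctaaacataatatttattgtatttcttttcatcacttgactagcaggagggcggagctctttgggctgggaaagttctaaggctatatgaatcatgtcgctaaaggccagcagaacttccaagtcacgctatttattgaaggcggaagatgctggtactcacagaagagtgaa
Bco1: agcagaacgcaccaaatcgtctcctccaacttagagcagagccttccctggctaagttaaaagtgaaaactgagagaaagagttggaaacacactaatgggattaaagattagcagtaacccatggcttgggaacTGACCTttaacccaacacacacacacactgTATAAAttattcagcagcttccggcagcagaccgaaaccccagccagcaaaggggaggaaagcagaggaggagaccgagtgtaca
Only Bco1 held AGGTCA, on the opposite strand and 115 bases before the start, and only Bco1 held TATAAA, 85 bases before the start. CCAAT stood 148 and 33 bases before the start of Sdr16c6, the farther copy on the opposite strand, and 88 and 18 bases before that of Aldh1a1. No marked motif overlapped another. Adh7 held none of the 3. Over all 33469 promoter windows of this length, 14.1% held AGGTCA, 12.9% TATAAA and 34% CCAAT. The direct repeat of AGGTCA with 5 letters between its copies, the spacing classically bound by retinoic acid receptors, was found in 0 of the 4 windows and in 3 of all windows. Only exact copies within the 250 bases were searched. So few windows held the repeat that 0 of 4 says nothing about binding of these receptors.

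The obese original array had an upper quartile of log2 intensity over genes of 7.21, against 7.04 to 7.08 on the other arrays, and skeletal muscle markers were far brighter in the lean pool, as is shown with the other cell type markers after the gene values.

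The 1.5-fold rule asked that the pool means differ by a factor of 1.5, that 0.25 or more of log2 intensity separate the closest obese and lean array, and that the brighter pool reach the median level of all genes (5.48). Under it 5 of the 9 genes were higher, against 2.19% of all genes, and 1 was lower, against 2.43%. The 5 were Sdr16c6, Aldh1a1, Adh7, Bco1 and Rdh10, and the gene that was lower was Rdh16. The 9 genes were chosen with earlier results of these arrays known, so their share is not evidence about retinoid genes at large. The arrays of the pools did not overlap for 7 of the 9 genes, a state met by 46% of all genes. The median difference of the 9 was 0.59, and that of all genes was 0.03 (obese minus lean, log2 intensity).

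**Figure D1:**
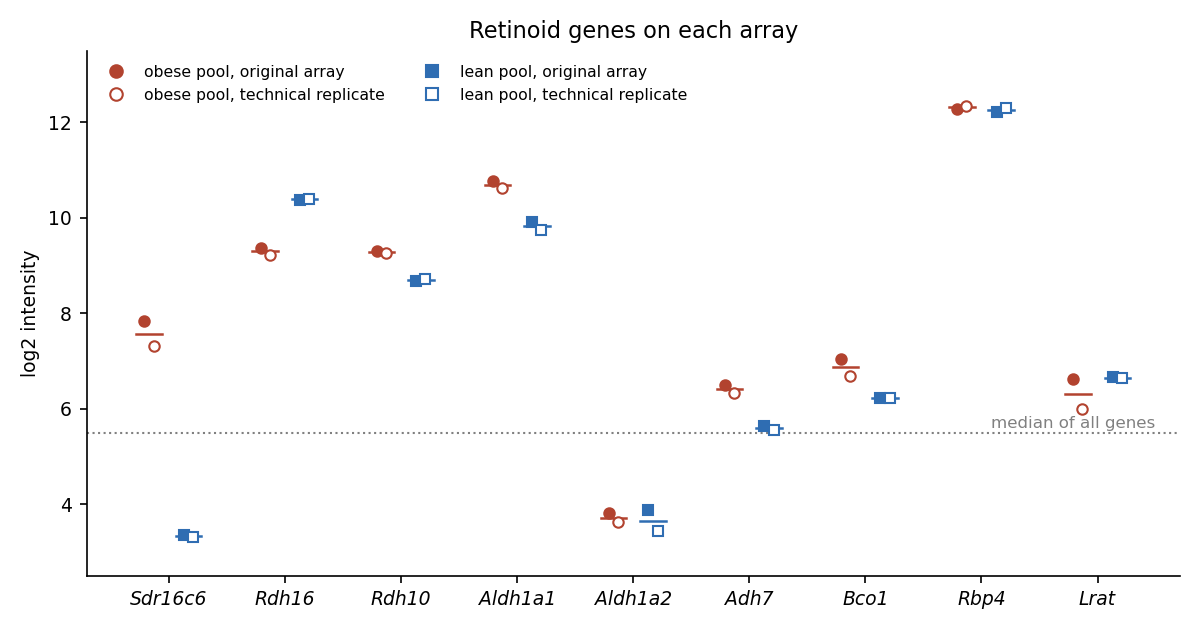
Log2 intensity of the 9 genes on each array, with circles for the obese pool and squares for the lean pool, filled for the original and open for the technical replicate array. Short bars are the mean of the 2 arrays of a pool, and the dotted line is the median level of all genes (5.48). Sdr16c6 lies below that line only in the lean pool, and Aldh1a2 lies below it in both pools.

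The retinol dehydrogenases moved in opposite directions. Sdr16c6 belongs to the short-chain dehydrogenase family 16C and in mice oxidises retinol. Its log2 intensity was 7.83 on the original and 7.31 on the technical replicate array of the obese pool, against 3.35 and 3.32 on those of the lean pool. The obese arrays stood far above the lean arrays, although they were themselves 0.52 apart, a spacing exceeded by 5.42% of genes. The difference was 4.24, and Sdr16c6 met a 2-fold rule, which requires a factor of 2 with 0.5 between the closest arrays, as did 0.572% of genes in that direction. The lean level lay below the median of all genes and may be background signal, so the fold of 18.9 (15.6 to 22.8 over the 4 pairs of an obese and a lean array) has no firm size. With 16 added to every intensity before log2, which shrinks differences of dim genes, the difference was 2.98, below the 3.62 of Pnpla3 on the same scale, so no rank by size is given.

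Rdh16, a microsomal dehydrogenase of the rat liver that acts on retinol and on hydroxysteroids, went the other way. It had 9.36 and 9.23 on the obese arrays, against 10.38 and 10.40 on the lean arrays. Every obese array was below every lean array, and the arrays of a pool lay at most 0.13 apart. The obese level was lower by a factor of 2.13 (2.02 to 2.25), with means of 9.30 ± 0.09 in the obese and 10.39 ± 0.02 in the lean pool (SD of 2 arrays). Rdh16 met the same 2-fold rule as lower, as did 1.48% of genes. In RefSeq it lies in a run of related genes with Rdh7, Rdh9 and a pseudogene named Rdh16-ps1, and how far the probes tell these copies apart is not known here.

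Rdh10, the dehydrogenase that makes retinal in the mouse embryo, was modestly higher. Its values were 9.30 and 9.26 in the obese pool and 8.67 and 8.71 in the lean pool, so the pools were separate and each pair of arrays was tight. The fold was 1.51 (1.47 to 1.55), at the edge of the 1.5-fold rule. The difference of 0.59 was 0.57 without the lean original array and also without the obese original array, 0.50 with cyclic loess, 0.54 with quantile normalisation and 0.46 with the arrays centred on hepatocyte markers, all short of the factor.

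Adh7 encodes the class IV alcohol dehydrogenase, best known from the stomach, with high activity towards retinol. It measured 6.49 and 6.34 in the obese pool and 5.63 and 5.55 in the lean pool. The groups did not overlap, and the fold was 1.77 (1.63 to 1.92). The difference of 0.82 kept its sign and passed the 1.5-fold rule under all 11 alternatives that gave it a value, between 0.66 and 0.90. Among the 11, the mean of probe sets only repeats the reported value, because the gene has 1 probe set.

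Of the enzymes that turn retinal into retinoic acid, Aldh1a1 was higher and Aldh1a2 was too dim to place. Aldh1a1, the cytosolic retinal dehydrogenase of hepatocytes, read 10.77 and 10.62 on the obese arrays and 9.92 and 9.75 on the lean arrays. Each obese array exceeded each lean array, by at least 0.71. The fold was 1.82 (1.63 to 2.03), and the difference of 0.86 ranged from 0.73 to 0.95 under the alternatives and passed the rule in all 11. The mean of probe sets, counted in the 11, could not differ from the reported value. The platform annotation lists a further RefSeq transcript on this probe set that the gene table does not hold, so signal from another transcript cannot be told apart. Aldh1a2, the main enzyme of retinoic acid synthesis in the embryo, stood at 3.8 and 3.63 in the obese pool and at 3.87 and 3.43 in the lean pool. The pools overlapped, both lay below the median level, and the difference of 0.07 took either sign under the alternatives (-0.15 to 0.29).

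Bco1 cleaves beta-carotene at its centre into retinal. Its level was 7.05 and 6.69 in the obese pool, against 6.22 and 6.21 in the lean pool. The pools were separate, but the obese arrays differed from each other by 0.36. The fold was 1.57 (1.39 to 1.78), and its size hung on which obese array was used. The difference of 0.65 became 0.83 when the obese technical replicate array was left out. Leaving out the obese original array gave 0.47, where the 1.5-fold rule was no longer met.

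**Figure D2:**
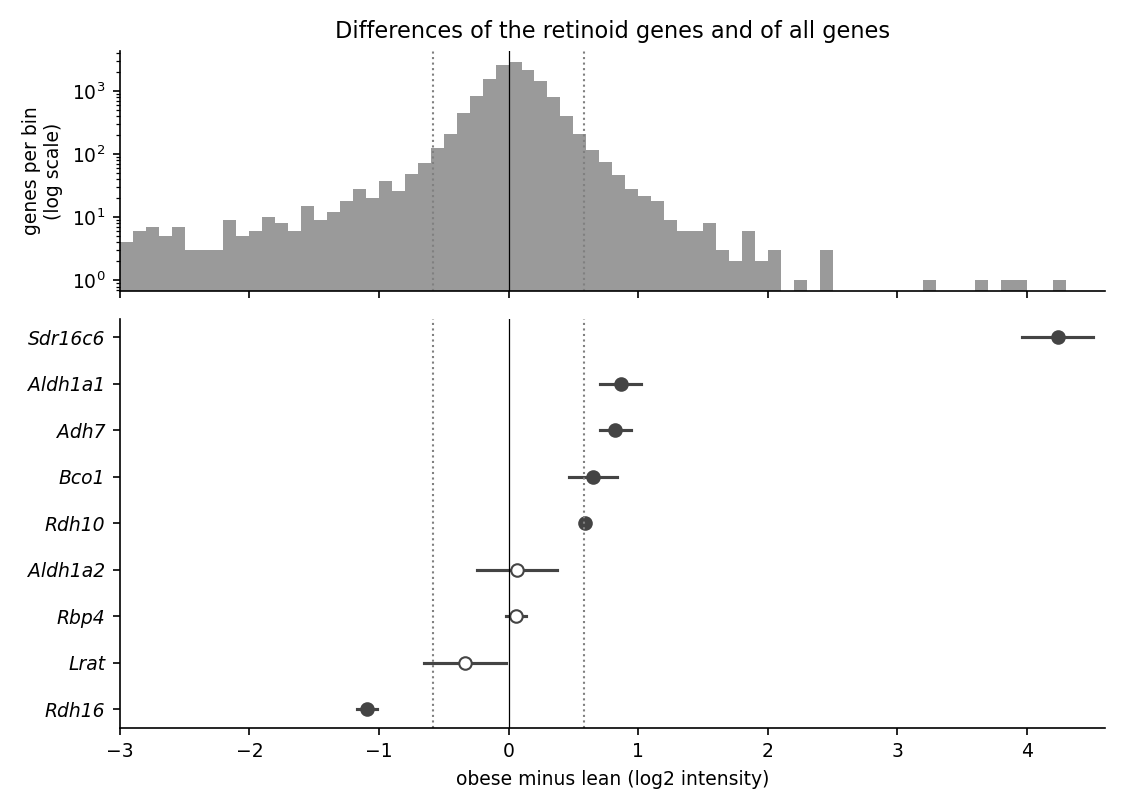
Upper panel, number of genes in bins of 0.1 by difference between the pools (obese minus lean, log2 intensity, log axis of counts); 68 genes below -3 lie outside the plot. Lower panel, the 9 retinoid genes, with the difference of pool means as a dot (filled where the 1.5-fold rule was met) and the range over the 4 array pairs as a line; dotted lines mark a factor of 1.5. Among the 9 genes of the lower panel, Sdr16c6 at 4.24 lies farthest to the right and Rdh16 at -1.09 farthest to the left.

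The storage and transport genes did not pass the rule. Lrat, the acyltransferase that forms retinyl esters in stellate cells, read 6.63 and 6.0 on the obese arrays, against 6.65 and 6.65 on the lean arrays. The obese original array was level with the lean pool and the technical replicate array was well below it, a spacing of 0.63 between arrays of the same RNA that only 2.26% of genes exceeded. The difference of -0.34 became -0.02 when the obese technical replicate array was left out. Leaving out the obese original array gave -0.65, where Lrat met the 1.5-fold rule as lower. In pooled tissue RNA, fewer cells of a type and less RNA per cell cannot be told apart. Of 12 other stellate cell markers measured, 4 passed the rule as lower and 0 as higher, and the summed intensity of the 12 was 1124.7 and 1057.9 in the obese pool and 2067.9 and 2164.5 in the lean pool. The 4 were Des, Dcn, Col1a1 and Lox, and 9 of the 12 reached the median level that the rule asks for. Desmin is also a muscle protein, and without Des the sums were 1091.7 and 1017.4 in the obese pool and 1513.1 and 1500.2 in the lean pool, with 3 of 11 lower. Skeletal muscle markers were lower in the obese pool as well, 11 of 11, so muscle RNA moved with these markers. Among the others, Reln and Hand2 differed by -0.03 and 0.00, Pdgfrb by 0.11, Cygb by 0.21 and Lhx2, dim in both pools, by 0.46. Col3a1 differed by -0.22, and Ngfr and Gfap, also dim in both pools, by -0.12 and 0.06. Without Des, 5 of the 11 differences lay above 0 and 6 below, with a median of -0.03, and no marker had a listed intensity of 0. The part of stellate cell or muscle RNA in the value of Lrat was not tested.

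Rbp4, which carries retinol from the liver into plasma, measured 12.28 and 12.35 in the obese pool and 12.21 and 12.30 in the lean pool. The pools overlapped, and the fold was 1.04 (0.985 to 1.1). Ttr, transthyretin, which binds the loaded carrier in plasma, read 13.35 and 13.41 in the obese pool and 13.21 and 13.30 in the lean pool, a difference of 0.12.

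**Figure D3:**
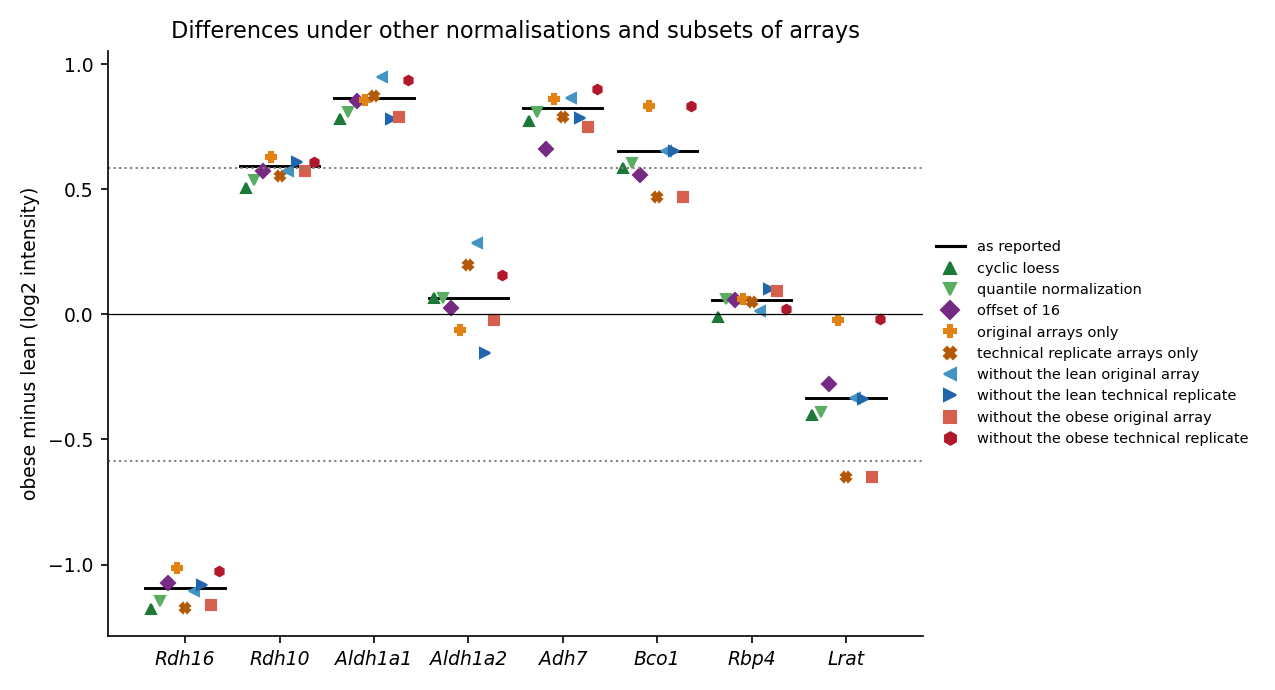
Difference between the pools (obese minus lean, log2 intensity) for 8 of the genes under other normalisations, an added offset, single pairs of arrays and with each array left out; Sdr16c6 is off this scale. Black bars are the values reported and dotted lines a factor of 1.5. Lrat spreads from -0.65 to -0.02, Rdh10 and Bco1 straddle the dotted line, and Rdh16, Aldh1a1 and Adh7 stay beyond it.

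A wider list of retinoid genes was drawn up by known role, with earlier results of these arrays known, and 43 of its 58 genes were measured. The obese pool was higher for 3 of them and lower for 2 by the 1.5-fold rule, against the 2.19% and 2.43% of all genes given above, and the median difference was 0.06. Only 26 of the 43 reached the median level that the rule asks for, so the others could not pass. In the binding and transport class, 2 of 9 genes reached that level, and 1 passed. It was Stra6l, whose product takes up retinol from its plasma carrier in mouse liver and gut, with 10.07 and 9.89 in the obese pool and 9.08 and 9.16 in the lean pool. These groups were separate, and Stra6l was 1.82-fold higher (1.66 to 1.98). Fabp5, a fatty acid-binding protein that also binds retinoic acid, differed by 0.96, at 4.16 and 4.25 in the obese and 3.17 and 3.31 in the lean pool. Both levels of Fabp5 lay below the median of all genes, so it was not counted.

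Genes of retinyl ester turnover held the larger changes of the list, with 1 of 7 higher and 2 lower. Ces1d, a liver carboxylesterase that hydrolyses neutral lipid esters, read 7.71 and 7.54 in the obese pool and 9.34 and 9.42 in the lean pool. It was 3.37-fold lower (3.08 to 3.68), with wide separation between the pools. A further probe set carries its symbol together with Ces1dl1 and was left out, and the carboxylesterase copies are similar, so the identity of the signal is uncertain. Pnpla2, the adipose triglyceride lipase, which in mice also hydrolyses retinyl esters, had 7.54 and 7.39 in the obese pool and 8.08 and 8.11 in the lean pool. Pnpla2 was 1.55-fold lower (1.46 to 1.65), and its difference of -0.64 was -0.56 without the obese technical replicate array, short of the factor. Pnpla3, a lipase of lipid droplets whose human form acts on retinyl esters in stellate cells, had 9.90 and 9.80 in the obese pool, against 5.82 and 6.02 in the lean pool. The remaining 4 genes of the class, among them Dgat1 (0.06) and Ces1e (0.12), which differed little, passed in neither direction.

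On the probe sets used, none of the 10 other short-chain dehydrogenases measured passed the rule. Only 6 of the 10 reached the median level that the rule asks for, so the others could not pass. The differences of the 10 ran from -0.23 for Dhrs3, a retinal reductase, to 0.40 for Rdh11. Sdr16c5, the closest relative of Sdr16c6 on the list, was at 2.24 and 2.29 in the obese and 2.29 and 2.42 in the lean pool, where both pools were dim. Rdh7, a relative of Rdh16, had 10.60 and 10.52 in the obese pool and 10.67 and 10.65 in the lean pool, a difference of -0.10 beside the -1.09 of Rdh16. Hsd17b6, which oxidises retinol and hydroxysteroids, had 3 probe sets that disagreed. The brightest differed by -0.11, while the other two differed by 0.95 and 1.09, with 10.66 and 10.59 on the obese and 9.65 and 9.69 on the lean arrays for the first of them. The direction for Hsd17b6 is therefore not settled.

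**Figure D4:**
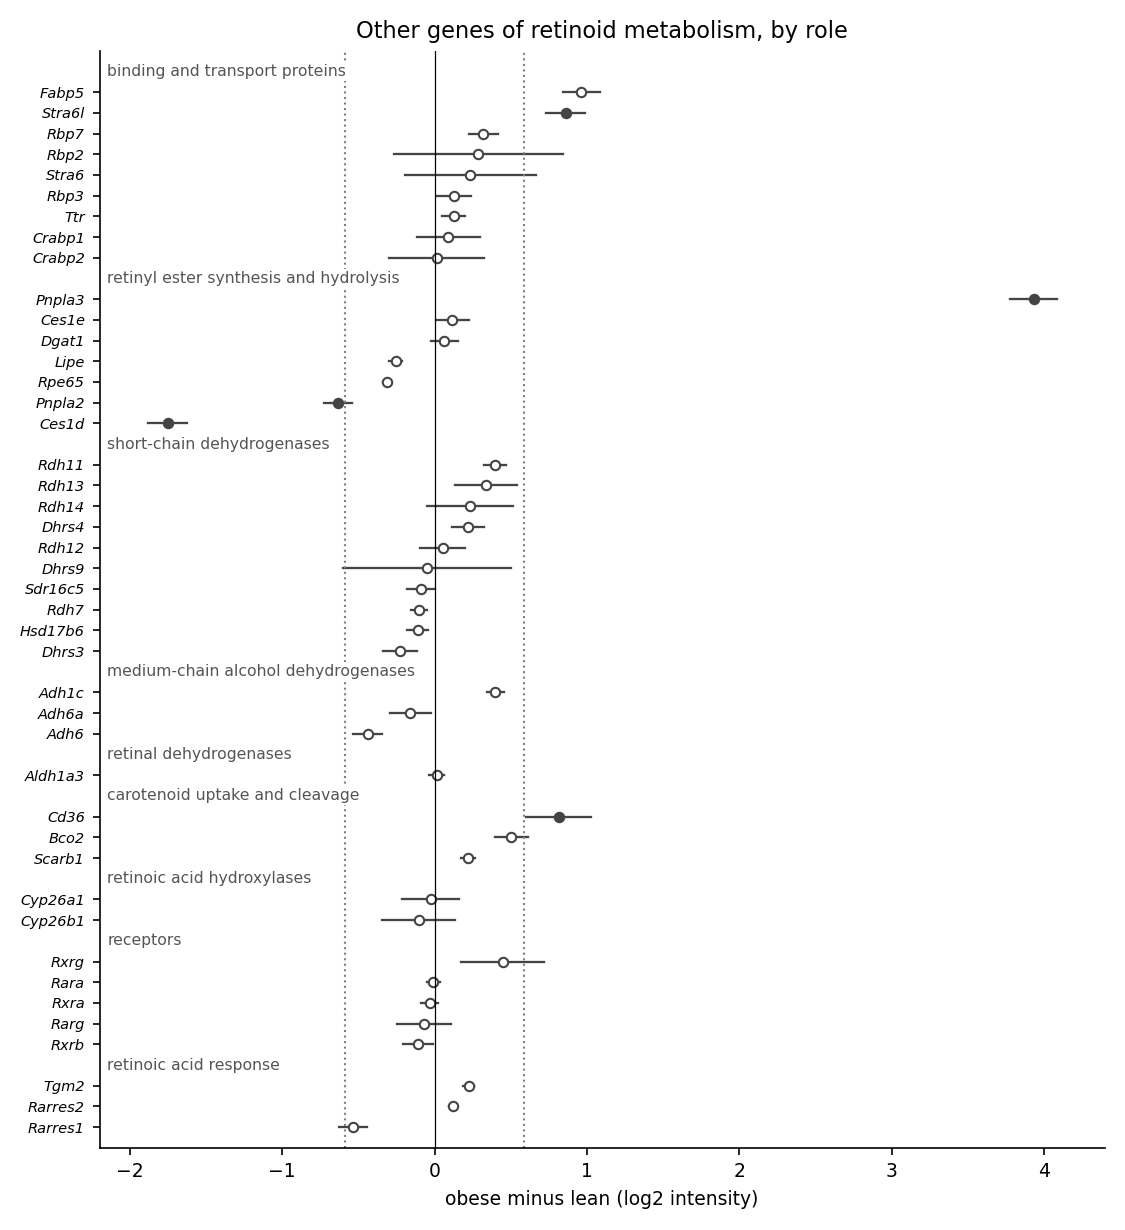
Difference between the pools (obese minus lean, log2 intensity) for the 43 measured genes of the wider retinoid list, grouped by role. Dots are differences of pool means, filled where the 1.5-fold rule was met, lines the range over the 4 array pairs, and dotted lines a factor of 1.5. Filled dots are Stra6l, Pnpla3 and Cd36 to the right and Pnpla2 and Ces1d to the left.

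Among alcohol dehydrogenases, Adh1c, the abundant liver form, read 12.89 and 12.78 in the obese pool and 12.44 and 12.44 in the lean pool, a difference of 0.40 that stayed short of the rule. Adh6 differed by -0.44 in the other direction. Adh4 and Adh5 share a probe set and are not reported. In carotenoid uptake and cleavage, 1 of 3 genes passed, Cd36, a scavenger receptor for fatty acids and carotenoids, at 9.89 and 9.60 in the obese pool and 8.86 and 9.0 in the lean pool. Cd36 was 1.76-fold higher (1.52 to 2.04), and its second probe set differed by 0.71. Bco2, which cleaves carotenoids off centre, was at 8.69 and 8.48 in the obese pool and 8.09 and 8.08 in the lean pool, a difference of 0.50 below the rule.

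Downstream of retinoic acid no gene passed the rule, though 0 of the 2 hydroxylases measured reached the median level that it asks for. Cyp26a1, the hydroxylase that retinoic acid induces and that clears it in liver, stood at 5.07 and 5.29 in the obese pool and at 5.13 and 5.29 in the lean pool. The pools overlapped at a level below the median of all genes, and the difference was -0.02. Of the 5 receptors measured, Rxra, the main retinoid X receptor of liver, differed by -0.03 and Rara by -0.01, and the largest difference was 0.45, for Rxrg. Among 3 genes listed for their response to retinoic acid, Rarres1 differed by -0.54, Tgm2, a transglutaminase, by 0.22 and Rarres2, the precursor of chemerin, by 0.12. Receptor and response genes thus spread to both sides of 0 without passing a factor of 1.5.

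The genes nearest in pattern were found by Euclidean distance over the 4 arrays, after each gene's own mean was subtracted. With arrays of only a pair of pools, this mostly ranks genes by the size of their difference. For Sdr16c6 they were Elovl6, a fatty acid elongase (distance 0.42), Pnpla3 (0.46) and the aldo-keto reductase Akr1b7 (0.76). For Rdh16 they were the hydroxyacid oxidase Hao2 (0.03), G6pc1, of glucose release from the liver (0.03), and the transcription factor Klf9 (0.06). For Aldh1a1 they were Aifm2, an oxidoreductase that reduces ubiquinone (0.04), the kinase Limk2 (0.04) and Adh7 (0.07).

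The tissue label was borne out by hepatocyte markers, all 10 of which were measured and bright, among them Alb at 13.72 and 13.77 in the obese pool and 13.61 and 13.72 in the lean pool. Their summed intensity was 70313.5 and 70539.7 in the obese pool and 63257.7 and 66015.6 in the lean pool, with 0 past the 1.5-fold rule. Skeletal muscle markers were lower in the obese pool for 11 of the 11 measured, with sums of 434.5 and 442.0 in the obese pool, against 30809.6 and 32125.1 in the lean pool, and none was listed at 0. Adipocyte, Kupffer cell, endothelial and bile duct markers had 0 of 6, 0 of 5, 0 of 3 and 0 of 3 past the rule. Only 2 of the 6 adipocyte and 0 of the 3 bile duct markers reached the median level that the rule asks for. The rest of these could not pass. All 5 Kupffer cell and all 3 endothelial markers were lower in the obese pool, short of the rule, with medians of -0.25 and -0.31. When the arrays were centred on the hepatocyte markers, which lowered every difference by 0.13 and moved the median of all genes to -0.10, Sdr16c6 (4.10), Aldh1a1 (0.73) and Adh7 (0.69) still passed as higher and Rdh16 (-1.23) as lower, and Bco1 (0.52) and Rdh10 (0.46) did not. This centring shifts all genes of an array by the same amount, so it cannot separate muscle RNA from liver RNA. The part of muscle RNA in the retinoid values was not tested.

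**Figure D5:**
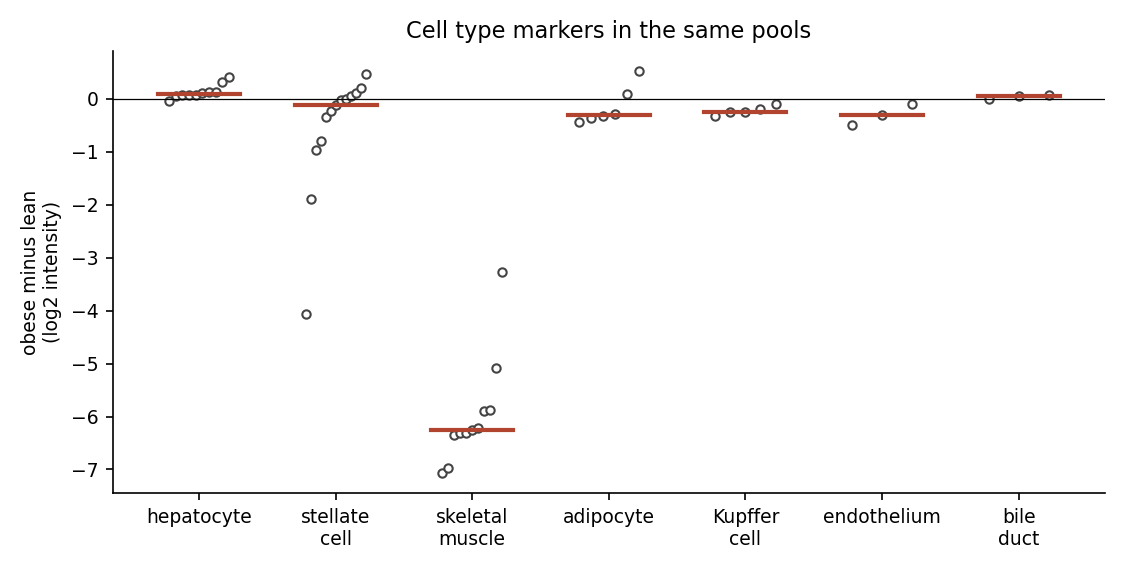
Difference between the pools (obese minus lean, log2 intensity) for each measured marker of 7 cell types, as open circles, with the median of each list as a bar. The hepatocyte median lies at 0.09 and the skeletal muscle median at -6.25.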

How the data were processed

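Liver RNA of 2 pools was measured on 4 arrays. The authors deposited linear intensities, a value for each probe set and array, and the submitters' processing notes name RMA; per the labels' protocols 100 ng of pooled RNA was labelled. The software version, genome build and the step to a linear scale are not given in the sources used here. Arrays were assigned by the phenotype in the labels. Of 29214 probe sets, 15310 carried 1 gene symbol, 323 several and 13581 were not listed; the probe set with the highest mean was used per gene. Values were converted to log2 here and not normalised again. The array medians were 4.69 and 4.79 in the obese pool and 4.77 and 4.75 in the lean pool. The standard deviation over genes of the difference between arrays was 0.27 within the obese pool, 0.20 within the lean pool and 0.48 to 0.52 between pools. Detection calls were not used here, so background was not told from signal, and the number of arrays limits the precision.

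Genes named were the 9 members, genes of the wider list past the 1.5-fold rule, the gene of each role with the brightest probe set, cell type markers, and 3 nearest patterns for Sdr16c6, Rdh16 and Aldh1a1; other genes were named after their values were seen. Members, lists, rules and tests were chosen with earlier results of these data known. Alternatives were cyclic loess and quantile normalisation (limma 3.58.1), an offset of 16, no level filter, the mean of probe sets, single pairs of arrays, each array left out, and, added after the data were seen, centring on hepatocyte markers. Gene names and promoters are RefSeq's (GRCr8); gene coordinates served for order only.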

Additional observations from a re-analysis of the deposited data

How the results depend on the processing

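Of the 9 genes, Sdr16c6, Aldh1a1 and Adh7 passed the 1.5-fold rule as higher and Rdh16 as lower under all 11 alternatives that gave them a value. Rdh10 passed under 4 and Bco1 under 6. These counts include the mean of probe sets, which could not change any call, because each of the 9 genes has 1 probe set. The count of the 9 genes higher, 5 as reported, was 3 with cyclic loess, 3 with an offset of 16, 3 on the technical replicate arrays only, 3 with centring on hepatocyte markers, and 3 to 5 when an array was left out, the lowest without the obese original array. The count lower, 1 as reported, was 2 on the technical replicate arrays only and 1 to 2 when an array was left out, the second gene being Lrat. On the original arrays only, the wider list had 5 higher and 1 lower, in place of 3 and 2. With an array left out it had 3 to 5 higher and 1 to 3 lower, with 5 and 1 without the obese technical replicate array. With the mean of probe sets, and also without the level filter, the wider list had 4 higher and 2 lower. Over all genes, 317 were 1.5-fold higher and 352 lower. The counts were 615 higher on the original arrays only, 258 to 552 higher with an array left out, 227 higher and 400 lower with cyclic loess, and 189 higher and 458 lower with centring on hepatocyte markers. The median of the wider list, 0.06 as reported, ran from -0.07 with that centring to 0.11. No paired analysis was possible because each pool is a single sample, whose arrays are an original and a technical replicate. The causes of these shifts were not tested. Dim genes are limited by background that was not measured, and a probe-level background correction was not tried here.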

Other observations

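The position of the retinoid genes was set against the nearest measured genes in RefSeq's order, up to 2 on each side of each of the 9, which gave 36 genes, named after their values were seen. Of these, 2 were 1.5-fold higher in the obese pool and 0 lower, against 2.19% and 2.43% of all genes. Counts this small do not set the neighbours apart from all genes. They were Rbm46, an RNA-binding protein gene beside Lrat, at 5.88 and 5.70 in the obese pool and 4.91 and 4.86 in the lean pool, and Mttp, a lipid transfer protein gene of lipoprotein assembly that lies near Adh7, at 10.59 and 10.49 in the obese pool and 9.95 and 9.93 in the lean pool. The genes around Sdr16c6, which were Plag1, Sdr16c5, Penk and Fam110b, differed by -0.08, -0.09, -0.09 and -0.07. Their levels, between 2.24 and 4.82, lay below the median of all genes in both pools and may be background, so they do not show how these neighbours were expressed. Around Rdh16, the values were -0.06 for Gpr182, -0.07 for Zbtb39, -0.10 for Rdh7 and 0.03 for Sdr9c7, beside -1.09 for Rdh16.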
